A study of Mus musculus with 19 samples.

Results

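Melan-a is an immortalised line of mouse melanocytes, the cells that make melanin. The study removed Bap1 from it with CRISPR and sequenced polyadenylated RNA from the unedited parental line and from 4 knockout clones, each in 2 cultures. The comparison described here is the difference between the 2 cultures of the same clone, culture 2 minus culture 1, over 8 libraries in 4 pairs. These 8 libraries were taken by name out of 19 samples of the series, and the 2 parental libraries served as the unedited reference. The groups were Melan-a BAP1 WT (parental) and Melan-a BAP1 KO clone 1, clone 2, clone 3 and clone 4. None had a drug or other treatment, and the sample titles name no batch. Every clone is a single isolate, so a genotype and an isolate cannot be told apart within a clone. The labels number the cultures of a line as biological replicates and do not say that culture 2 was grown later, from a higher passage or on another day. The sign of every difference below therefore follows the numbering and has no known direction in time. In clones 1, 2 and 4 the library code ends in 3 for culture 1 and in 4 for culture 2, whereas in clone 3 the code of culture 1 ends in 4. What these digits stand for is not stated.

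BAP1 is a nuclear deubiquitinase that removes ubiquitin from histone H2A, and it is lost in many uveal melanomas. Cultured melanocytes adjust their transcripts to density, nutrients, metal ions and growth factors, through MAPK signalling, the ATF4 branch of the stress response, SREBP control of sterol synthesis and the metal sensor MTF1. Cultures of one clone share a genome apart from later mutations, so their comparison describes how far RNA varied with the edit held constant. In bulk RNA, fewer cells of one kind and less RNA per cell cannot be told apart.

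The libraries held 30.8 to 46.8 M reads, and the clone 1 cultures were the most unequal, with 0.68 times as many reads in culture 2 as in culture 1. Bap1, which checks the labels, held 4450 and 4392 normalised reads in the parental cultures and 359 to 1193 in the 8 clone libraries, with no overlap. Normalised reads are the recovered reads of a library scaled to a common depth. Differences are given on the deposited variance-stabilised scale, which is close to log2 for well expressed genes and flattens at low counts, so that it understates the change of weakly expressed genes. Of 13202 genes, 10803 had a mean at least 1 unit above the lowest value and were tested. Between the cultures of a clone, Bap1 differed by -0.16, 0.06, -0.10 and -0.32 for clones 1 to 4 (mean -0.13 ± 0.16 SD, n = 4 pairs, limma adjusted p = 0.367).

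The 2 cultures of 3 of the 4 clones lay much farther apart than the parental cultures. The standard deviation of the difference over the 10803 genes was 0.077 for the parental line, and 0.272, 0.241, 0.127 and 0.297 for clones 1 to 4. Differences of at least 1 unit, about 2-fold, were found for 45 genes of clone 1 (24 higher and 21 lower in culture 2), for 16 of clone 2 (5 and 11) and for 45 of clone 4 (32 and 13). Clone 3 and the parental line had 0 such genes. At a size of at least 0.5 the counts were 664, 419, 4 and 906 genes for clones 1 to 4 and 0 for the parental line. Counting noise was smallest among the 2161 most highly expressed genes, where the standard deviation was 0.043 in the parental line and still 0.285, 0.241, 0.111 and 0.295 in clones 1 to 4. Each of these is 1 library against 1 library, so no test applies to a single clone. On the scale of log2 of normalised reads plus 1, which flattens low values less, the counts past 1 unit were 173, 146, 27 and 297 in clones 1 to 4 and 3 in the parental line. Culture 2 lay slightly farther from the parental mean than culture 1 in every clone: the root mean square distance over genes was 0.27 and 0.31 for the cultures of clone 1, 0.44 and 0.50 for clone 2, 0.55 and 0.56 for clone 3 and 0.55 and 0.58 for clone 4.

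The differences of clones 1 and 2 ran alike across genes, and those of clones 3 and 4 did not. Pearson's r across 10803 genes was 0.73 between clones 1 and 2, 0.39 between clones 2 and 3, 0.32 between clones 1 and 4, 0.31 between clones 1 and 3, 0.11 between clones 2 and 4 and -0.03 between clones 3 and 4. The parental difference correlated with the clones at -0.12, -0.13, -0.09 and -0.07. These correlations are descriptions across genes, which are not independent replicates, and no library enters both sides of any of them. On the log2 scale of normalised reads the value between clones 2 and 3 was 0.26.

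**Figure D1:**
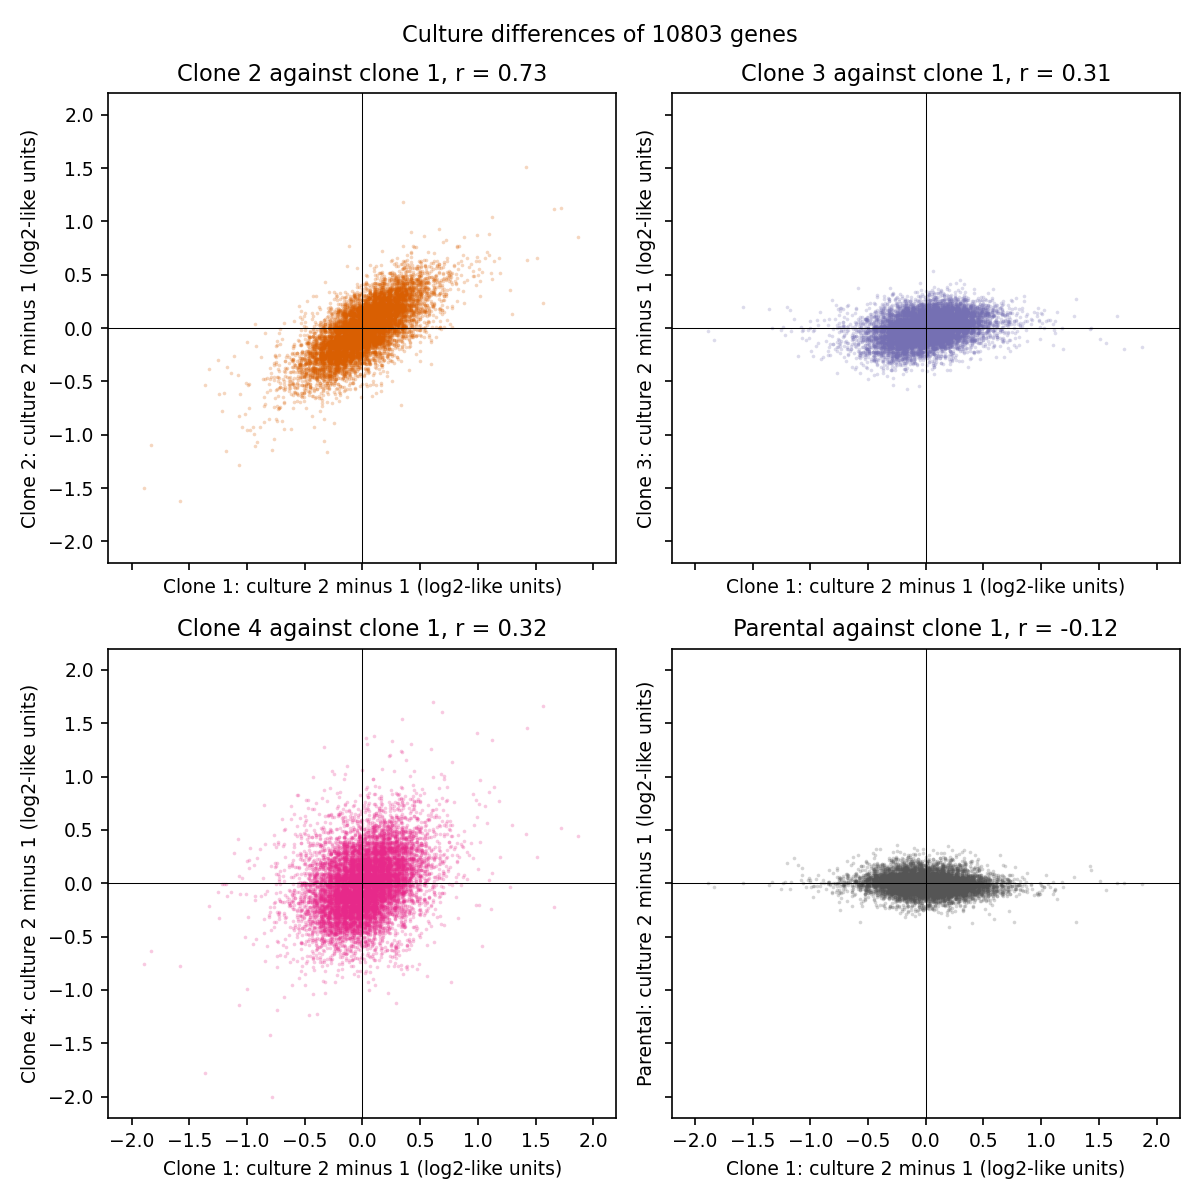
Difference between culture 2 and culture 1 for each of 10803 genes (points), in log2-like units, with clone 1 on every horizontal axis and clone 2, clone 3, clone 4 or the parental line on the vertical axes. The cloud for clone 2 is tilted (r = 0.73), those for clones 3 and 4 are weakly tilted (0.31 and 0.32), and the parental cloud is flat and narrow (-0.12).

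No gene passed the paired test over the 4 clones: limma, with the clone as a block and Benjamini-Hochberg adjustment, called 0 of 10803 genes (0.0%) at an adjusted p under 0.05, and the lowest adjusted p was 0.124. Unadjusted p-values under 0.05 were found for 2461 genes, 1246 higher in culture 2 (11.5% of the genes tested) and 1215 lower (11.2%). The limma-voom fit on the recovered reads also called 0 genes, with 2563 at an unadjusted p under 0.05. The unadjusted count depended on single clones: it was 960 without clone 1, 1302 without clone 2, 2497 without clone 3 and 3361 without clone 4. For one gene taken alone, an exact sign-flip test over 4 pairs cannot give a two-sided p under 0.125. When the clones' difference was compared with the parental difference, limma called 0 genes (0.0%), 140 had an unadjusted p under 0.05 and the lowest adjusted p was 0.998, in a fit that takes the spread of the single parental pair to equal that of the clones. All gene values that follow describe 4 pairs in which no single gene reached the threshold.

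Genes with one sign in all 4 clones numbered 1641 higher in culture 2 (15.2% of the genes tested) and 1695 lower (15.7%), and of these 593 and 720 had the same sign in the parental pair. Few of them were large in every clone: 8 genes were higher by at least 0.25 in each clone (0.0741%), 14 were lower (0.13%), and 0 reached 0.5 in each clone in either direction. Clone 3, with the smallest differences, set these counts: without it, 282 genes were higher and 254 lower by at least 0.25 in each remaining clone. Without clone 4 there were 31 and 101, and without clone 2 there were 21 and 17. In the parental pair, 7 of the 8 higher genes had the same sign, with differences of -0.05 to 0.18. Of the 14 lower genes 6 did, with parental differences of -0.07 to 0.05. The 12 genes of each direction with the largest smallest difference are described next, and the selection itself fixes their sign in the clones.

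The jointly lower genes were led by Casp8ap2 (chromosome 4, 32615470 to 32653271, GRCm38), whose protein FLASH is needed for histone transcript processing. Casp8ap2 held 687 and 447 normalised reads in cultures 1 and 2 of clone 1, 776.5 and 495 for clone 2, 532 and 366 for clone 3 and 517.5 and 327 for clone 4, against 636.5 and 639 in the parental line. Culture 2 was the lower one in every clone, and the parental cultures were level. The mean difference was -0.46 ± 0.05 (SD, n = 4 pairs), with a standard error of 0.07, an unadjusted p of 0.000111 and an adjusted p of 0.124 in limma. H2bc8, a replication-dependent histone gene with near-identical copies that may share reads, differed by -0.34, -0.58, -0.35 and -0.37 in clones 1 to 4 and by -0.07 in the parental line. A separate list of 6 tested genes of this kind had medians of 0.05, -0.18, 0.07 and -0.10, and 0 were lower in all 4 clones. Main transcripts of such genes lack a poly(A) tail, whereas polyadenylated RNA was sequenced. Rif1, which sets replication timing and protects telomeres and broken DNA ends, went from 2428 to 1731 reads for clone 1, 2522 to 1862 for clone 2, 1889 to 1498 for clone 3 and 2201 to 1695 for clone 4, with 2211 and 2187 in the parental cultures. Atrx, a chromatin remodeller that loads histone H3.3, held 4176 and 2749 reads for clone 1, 4170 and 3092 for clone 2, 3397 and 2758 for clone 3 and 3054 and 2524 for clone 4, against 3288 and 3317. All 4 clones had the lower value of Rif1 and of Atrx in culture 2, by 0.26 to 0.57, while the parental differences were -0.01 and 0.01.

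The remaining jointly lower genes encode proteins of several unrelated kinds. Rock1, a kinase of actomyosin contraction, had a mean difference of -0.46 ± 0.12 (SD, n = 4 pairs). Ranbp2, a large nucleoporin on the cytoplasmic face of the pore, held 6348 and 4182 reads for clone 1, 6827 and 5297 for clone 2, 4400 and 3618 for clone 3 and 4278 and 3173 for clone 4, against 5040 and 5213 in the parental line. Aff4, the scaffold of the super elongation complex of RNA polymerase II, had a mean of -0.32 ± 0.07 and parental -0.02. Myo9a, an unconventional myosin, had a mean of -0.35 ± 0.08. Cobll1, Qser1, Dnal1 and Prrg1 had means of -0.40, -0.32, -0.32 and -0.32. The gene just outside these 12 was Myo5a, the motor that carries melanosomes, at -0.85, -0.73, -0.25 and -0.34.

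The jointly higher genes likewise encode products of several unrelated kinds. Ube2m, the enzyme that conjugates NEDD8 to cullins, held 5292 and 9042 normalised reads for clone 1, 6986 and 9926 for clone 2, 10551 and 12599 for clone 3 and 9056 and 11944 for clone 4, with 7141 and 7263 in the parental cultures. Pfn1, the actin monomer-binding protein profilin 1, held 7700 and 11542 reads for clone 1, 7977 and 10932 for clone 2, 10779 and 12910 for clone 3 and 11646 and 13833 for clone 4, against 8551 and 8271. Trip6, a LIM-domain protein of focal adhesions, had differences of 0.85, 0.50, 0.25 and 0.37 in clones 1 to 4 and 0.04 in the parental line. In these 3 genes culture 2 was the higher one in every clone, and the size was largest in clone 1. Limma gave mean differences of 0.47 ± 0.21 for Ube2m, 0.38 ± 0.16 for Pfn1 and 0.49 ± 0.26 for Trip6 (SD, n = 4 pairs), each at an adjusted p of 0.124. Thop1, a cytosolic oligopeptidase, Enho, which encodes the secreted peptide adropin, and Ppp1r14b, an inhibitor of protein phosphatase 1, had means of 0.40, 0.42 and 0.40. Tspan4, a tetraspanin of migrasomes, had a mean of 0.40 and Nudt14, a nucleotide sugar hydrolase, 0.37. Dmrta2, a DM-domain transcription factor, had the largest smallest difference, at 0.33, 0.32, 0.41 and 0.42, but the parental cultures also differed by 0.18 in that direction. Scand1, Ssbp4 and the unnamed transcript Gm26519 completed the 12, with means of 0.38, 0.36 and 0.31. Gm26519 also differed by 0.16 in that direction in the parental line. Rogdi lay just outside, at 0.24, 0.30, 0.25 and 0.71.

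**Figure D2:**
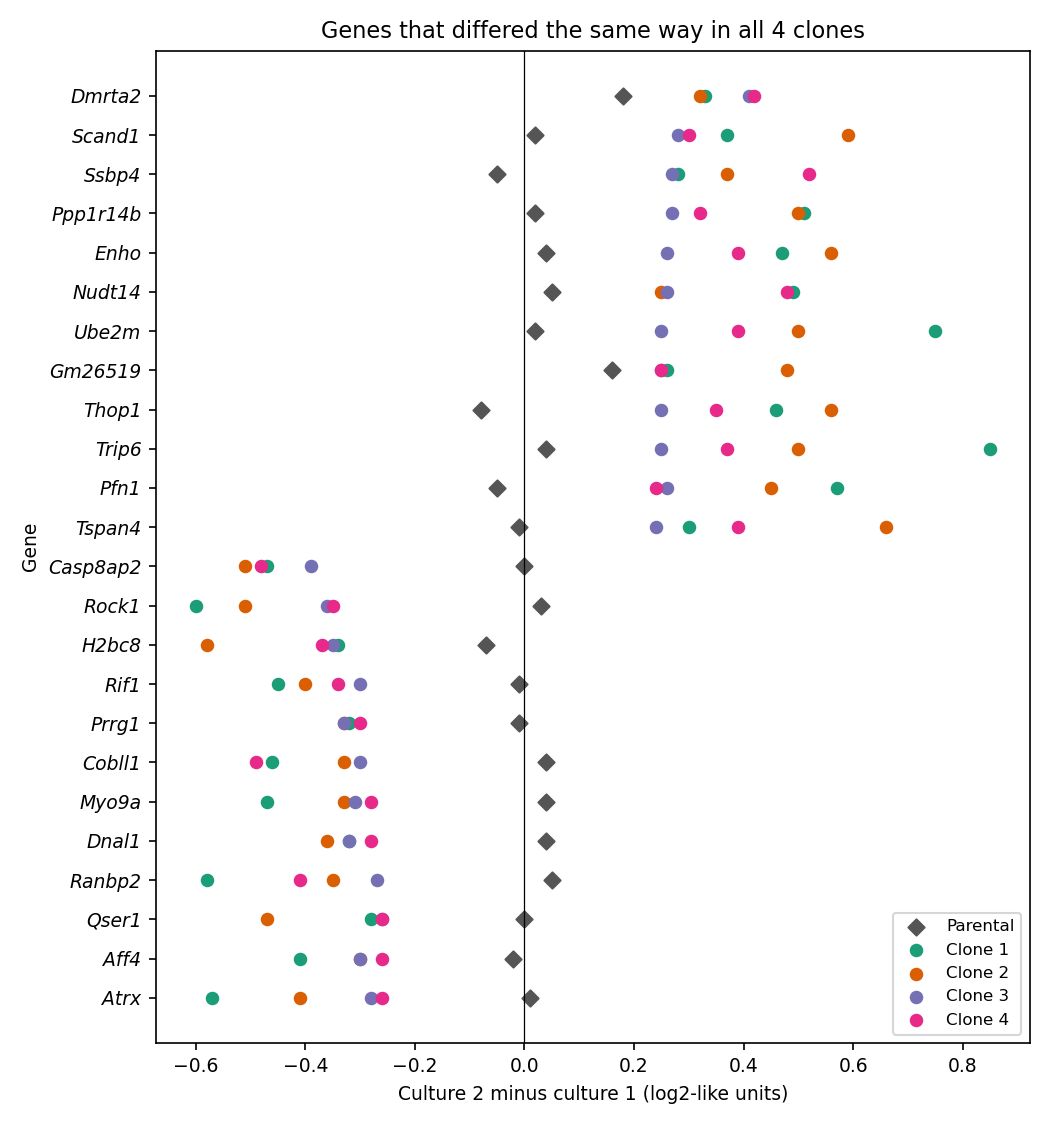
Difference between culture 2 and culture 1 (horizontal axis, log2-like units) for the 12 jointly higher and 12 jointly lower genes (rows); circles are clones and diamonds the parental pair. The clones lie on one side of 0 by the choice of the genes, while the parental values lie between -0.08 and 0.18.

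Gene span, the distance from the first to the last base of a gene, moved with the differences in 3 clones. The median span was 12.6 kb for the 1641 genes higher in all 4 clones and 44.0 kb for the 1695 lower genes. For the 8 and 14 genes of at least 0.25 in each clone it was 4.43 and 73.4 kb. Across 10799 genes with a known span, Pearson's r of the difference with log10 span was -0.26, -0.32, -0.43 and 0.06 for clones 1 to 4 and 0.03 for the parental line. In the 2160 genes with the shortest span (median 4.64 kb) the median difference was 0.11, 0.12 and 0.10 in clones 1 to 3, -0.03 in clone 4 and -0.01 in the parental line. In the 2160 genes with the longest span (median 118 kb) it was -0.09, -0.11, -0.08, 0.02 and 0.00 in the same order. Clone 4, whose cultures differed most, showed no such slope. After each line's differences were adjusted for span, a step added after the spans were seen, the counts of at least 0.25 in each clone were 5 higher and 7 lower. Signs of RNA quality stand beside this: the 7 mitochondrial transcripts tested had medians of 0.09, -0.17, -0.09 and 0.05 in clones 1 to 4, and 8 nuclear long non-coding RNAs 0.08, -0.23, -0.03 and 0.20, with -0.04 and 0.13 in the parental line. The part of RNA quality or library preparation in the relation with span was not tested. By chromosome, the median difference after subtracting the median of all genes stayed between -0.09 and 0.07 on each of 20 chromosomes in all 5 lines.

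**Figure D3:**
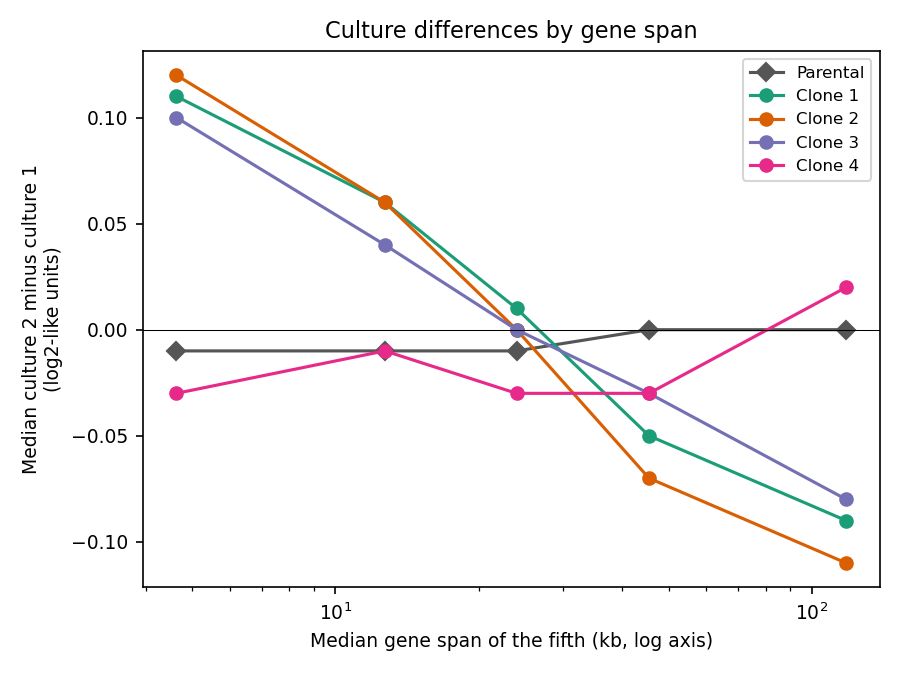
Median difference between culture 2 and culture 1 (vertical axis, log2-like units) in 5 groups of about 2160 genes ordered by gene span (horizontal axis, kb, log scale), 1 line for each of the 4 clones and the parental line. Clones 1 to 3 slope from about 0.1 for short genes to about -0.1 for long ones, and clone 4 and the parental line stay near 0.

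Metal-handling genes showed the largest median difference over the clones, in size, of the lists examined. The 3 genes were Mt1 and Mt2, metallothioneins that bind zinc and copper, and Slc30a1, the zinc exporter of the plasma membrane, all classical targets of MTF1. Their promoters are printed because the 3 genes were lower together in culture 2 of clones 1, 2 and 4, though not in clone 3. MTF1 acts through short metal response elements, and its part in the differences was not tested. Each window runs from 250 bases before to 50 bases after the RefSeq start (GRCm38.p6, plus strand), and capitals mark matches to TGCGCNC or TGCACNC on either strand. The windows are chr1:191906531-191906830 for Slc30a1, chr8:94172368-94172667 for Mt2 and chr8:94178839-94179138 for Mt1.
Slc30a1: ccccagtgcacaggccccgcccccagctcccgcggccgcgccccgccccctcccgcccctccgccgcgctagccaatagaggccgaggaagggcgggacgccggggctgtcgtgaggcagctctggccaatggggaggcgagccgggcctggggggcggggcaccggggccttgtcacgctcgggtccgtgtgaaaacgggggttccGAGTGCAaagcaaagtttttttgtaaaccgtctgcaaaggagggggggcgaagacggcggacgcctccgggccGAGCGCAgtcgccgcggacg
Mt2: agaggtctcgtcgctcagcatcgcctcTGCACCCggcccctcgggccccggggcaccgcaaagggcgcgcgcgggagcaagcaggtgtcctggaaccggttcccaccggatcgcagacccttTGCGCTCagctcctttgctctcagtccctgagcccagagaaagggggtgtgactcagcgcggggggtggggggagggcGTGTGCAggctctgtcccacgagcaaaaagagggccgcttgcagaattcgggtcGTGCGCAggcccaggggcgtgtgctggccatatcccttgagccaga
Mt1: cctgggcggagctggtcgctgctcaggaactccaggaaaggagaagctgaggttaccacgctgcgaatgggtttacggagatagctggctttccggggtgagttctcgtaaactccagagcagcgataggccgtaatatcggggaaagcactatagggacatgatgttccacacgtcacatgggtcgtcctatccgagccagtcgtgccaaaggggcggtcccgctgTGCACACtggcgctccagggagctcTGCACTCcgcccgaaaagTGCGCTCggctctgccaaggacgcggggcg
The motif occurred 2 times in the Slc30a1 window, 4 times in that of Mt2 and 3 times in that of Mt1. At least 1 match was present in 36.7% of 11191 promoters of tested genes and in 25.7% of all 32851 promoters of the table, so a match by itself is common, and it describes letters only. The same windows of genes from 2 other lists, described further on, were searched on both strands as well. The ATF4 site TGATGNAA had 1 match for Chac1 and 0 for Aldh18a1 and for both starts of Atf5, and occurred in 2.0% of the promoters of tested genes. The sterol response element TCACNCCAC had 0 matches for Mvk and Mvd and occurred in 1.14%.

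Mt2 held 3686 and 2071 normalised reads in cultures 1 and 2 of clone 1, 2205 and 904.5 for clone 2, 248 and 315.5 for clone 3 and 652 and 59.3 for clone 4. Mt1 held 9345 and 5773 reads for clone 1, 6399 and 3888 for clone 2, 2660 and 3117 for clone 3 and 4929 and 2253 for clone 4. Slc30a1 held 1726 and 981 for clone 1, 1404 and 902 for clone 2, 918 and 796 for clone 3 and 1263 and 728 for clone 4. Culture 2 was lower for all 3 genes in clones 1, 2 and 4, and in clone 3 the 2 metallothioneins were slightly higher while Slc30a1 was lower. The parental cultures were close, at 6664 and 6274 reads for Mt2, 13529 and 12920 for Mt1 and 1819 and 1805 for Slc30a1, and every clone library lay below them. The mean difference was -0.92 ± 0.92 for Mt2, -0.56 ± 0.54 for Mt1 and -0.53 ± 0.25 for Slc30a1 (SD, n = 4 pairs), with adjusted p of 0.128, 0.130 and 0.124 in limma. All 3 were lower at an unadjusted p under 0.05, against 11.2% of all genes. The list's medians were -0.71, -0.69, 0.21 and -1.07 in clones 1 to 4 and -0.07 in the parental line. Mt1 and Mt2 are close paralogs, and how reads shared between them were counted is not stated.

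Feedback genes of MAPK signalling were higher in culture 2 of clones 1, 2 and 4 and level in clone 3. Of 11 tested members, 7 were higher at an unadjusted limma p under 0.05 (63.6%, against 11.5% of all genes) and 0 were lower, while 0 passed the adjusted threshold. The list medians were 0.53, 0.25, 0.01 and 0.40 in clones 1 to 4 and 0.00 in the parental line, beside medians of all genes between -0.02 and 0.01. Spry4, which restrains receptor tyrosine kinase signalling, held 130 and 457 normalised reads for clone 1, 48.7 and 108 for clone 2, 395 and 422 for clone 3 and 245.5 and 874 for clone 4. Dusp6, a phosphatase of ERK, held 3384 and 4612 reads for clone 1, 1950 and 2962 for clone 2, 4264 and 4069 for clone 3 and 3837 and 6766 for clone 4. Etv5, a transcription factor induced by the pathway, held 236 and 1012 reads for clone 1, 108 and 151 for clone 2, 1050 and 938 for clone 3 and 601 and 2295 for clone 4. Clone 4 had the largest difference for each of these 3 genes, and the parental cultures were close, at 353.5 and 337 for Spry4, 3815 and 4089 for Dusp6 and 407 and 383 for Etv5. Mean differences were 0.75 ± 0.59 for Spry4, 0.43 ± 0.36 for Dusp6, 0.69 ± 0.66 for the related factor Etv4 and 0.83 ± 0.91 for Etv5 (SD, n = 4 pairs), with limma adjusted p of 0.124 to 0.141.

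Immediate early genes, transcribed within minutes of growth factor stimulation, had medians of the same sign. Of 15 tested, 7 were higher (46.7%, against 11.5% of all genes) and 1 lower (6.67%, against 11.2%) at an unadjusted p under 0.05, with medians of 0.31, 0.26, 0.05 and 0.25 in clones 1 to 4 and 0.02 in the parental line. Egr1, a zinc finger transcription factor, held 334 and 828 normalised reads for clone 1, 320 and 720 for clone 2, 1059 and 975 for clone 3 and 275 and 1010 for clone 4, with 251.5 and 224.5 in the parental cultures. Ier2 was higher in culture 2 of all 4 clones, by 0.79, 0.59, 0.14 and 0.76. Of the 15 genes, 10 had a positive mean difference over the 4 clones. Klf6 was the only 1 lower in all 4 clones, with a mean of -0.35 ± 0.16 (SD, n = 4 pairs). Targets of YAP and TAZ, coactivators that respond to cell density and tension, had medians of 0.24, 0.16, 0.00 and 0.33, and 4 of 8 tested were higher at an unadjusted p under 0.05, against 11.5% of all genes. Among them Ccn1, a secreted matrix protein, held 1571 and 3356 reads for clone 1, 1804 and 2905 for clone 2, 4796 and 4984 for clone 3 and 617 and 1153 for clone 4, against 2325 and 2271. TGF-beta targets and matrix genes had medians of 0.18, 0.04, -0.04 and 0.20. At an unadjusted p under 0.05, 3 of 9 were higher (33.3%, against 11.5% of all genes) and 1 lower (11.1%, against 11.2%). The basement membrane collagens Col4a1 and Col4a2 had means of 0.45 and 0.53, with clone 3 at -0.04 and -0.03, and Skil, a repressor of SMAD proteins, was lower in all 4 clones, with a mean of -0.32.

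**Figure D4:**
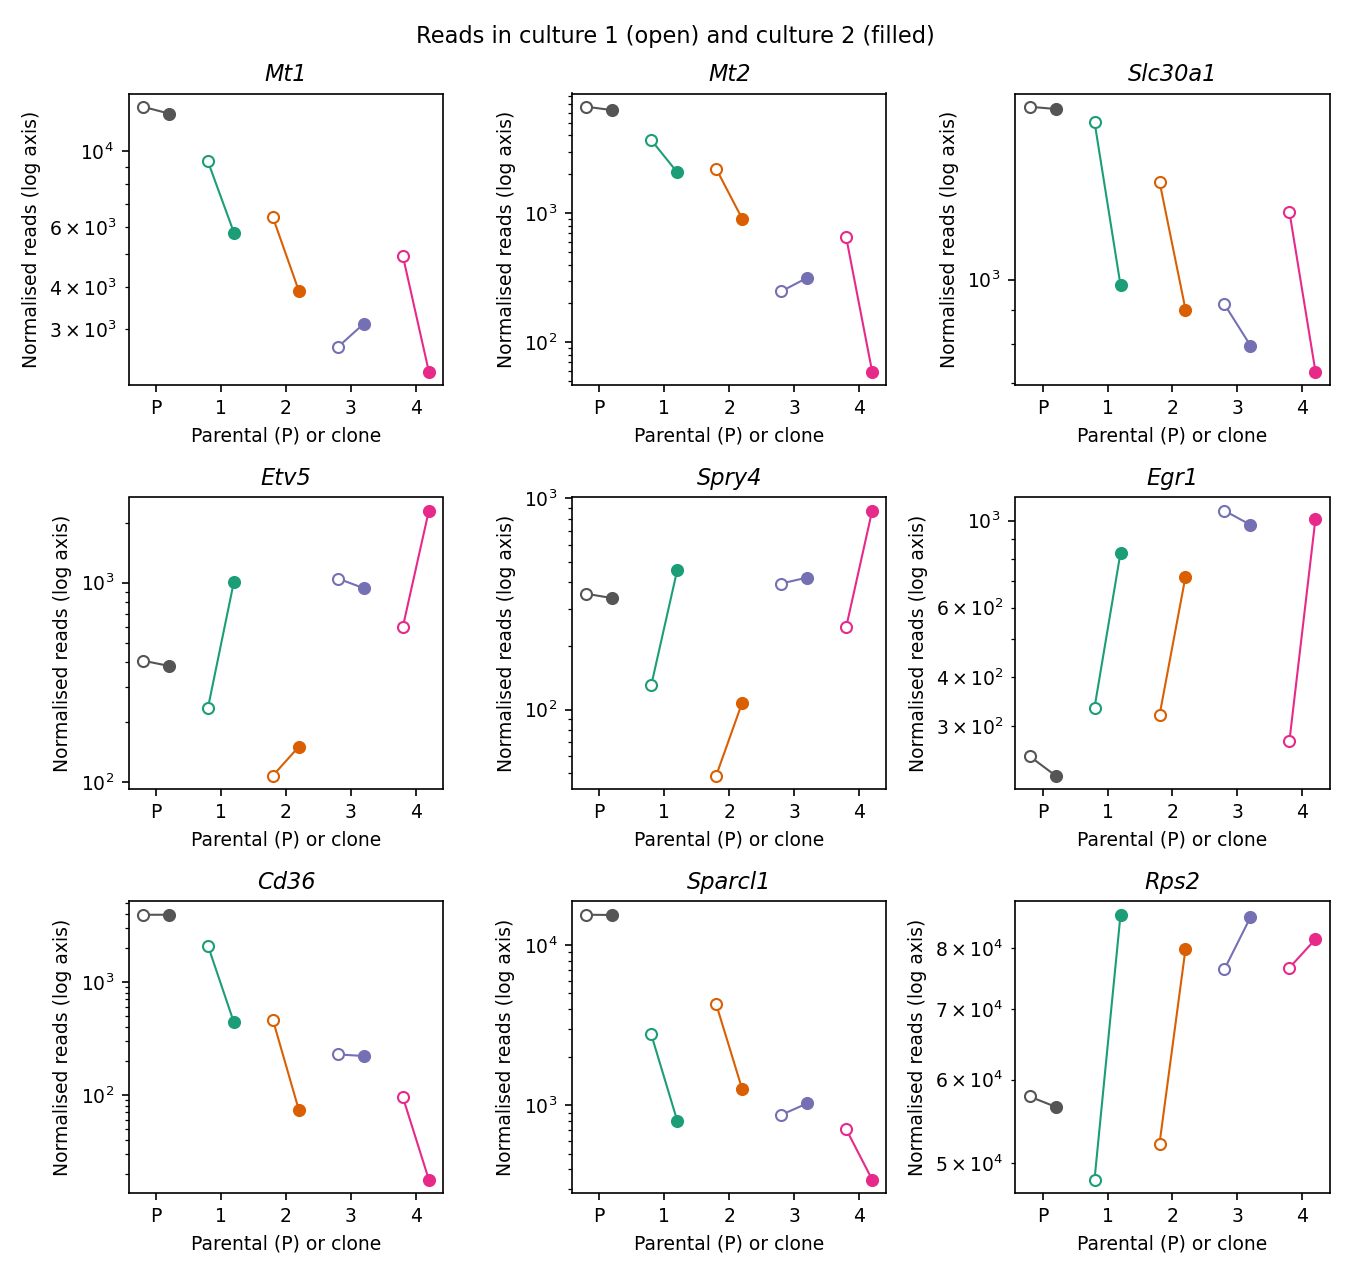
Normalised reads (vertical axes, log scale) of 9 genes in culture 1 (open circles) and culture 2 (filled circles) of the parental line (P) and clones 1 to 4, with a line joining the cultures of one line. Lines are steep in clones 1, 2 and 4 for most genes, short in clone 3 and nearly flat in the parental line.

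ATF4 targets of the integrated stress response, which supply amino acids and their transporters, had the largest share of members higher at an unadjusted p. This held for 12 of 18 tested genes (66.7%, against 11.5% of all genes), with 0 lower, and 10 of 18 were higher in culture 2 of all 4 clones, against 15.2% of all genes. The medians were 0.53, 0.33, 0.05 and 0.14 in clones 1 to 4 and -0.03 in the parental line. Aldh18a1, which makes the precursor of proline, held 2849 and 5853 normalised reads for clone 1, 4548 and 7374 for clone 2, 6772 and 6809 for clone 3 and 5130 and 8007 for clone 4, against 4103 and 4113. Chac1, which degrades glutathione, held 529 and 1017 for clone 1, 621 and 976 for clone 2, 1225 and 1291 for clone 3 and 1215 and 1583 for clone 4, against 945 and 891. Atf5, a transcription factor of the same pathway, had differences of 0.51, 0.28, 0.13 and 0.57. Culture 2 held more of these transcripts in every clone, and culture 2 of every clone was above both parental cultures for all 3 genes. In clone 3, culture 1 was above them as well. The other arms of stress differed between clones: chaperones of the unfolded protein response had medians of 0.19, 0.52, 0.04 and -0.21, and heat shock genes 0.07, 0.17, 0.00 and -0.17, with 0 of 15 and 0 of 10 at an unadjusted p under 0.05. Calr, an endoplasmic reticulum chaperone, was higher by 0.63 in clone 2. NRF2 targets had medians of 0.34, 0.21, -0.01 and -0.02, and Osgin1 among them a mean of 0.63 ± 0.41 (SD, n = 4 pairs).

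Genes of cholesterol synthesis and other SREBP2 targets had positive medians in clones 1, 2 and 4. Of 21 tested, 7 were higher (33.3%, against 11.5% of all genes) and 1 lower (4.76%, against 11.2%) at an unadjusted limma p under 0.05. None passed the adjusted threshold. In all 4 clones 10 were higher, against 15.2% of all genes, and clone 3 had 11 of 21 higher. The medians were 0.09, 0.17, 0.00 and 0.34, with -0.02 in the parental line. Mvk, the mevalonate kinase, held 920 and 1161 normalised reads for clone 1, 792 and 1277 for clone 2, 997.5 and 1158 for clone 3 and 957 and 1571 for clone 4. Mvd, a later enzyme of the same branch, had differences of 0.37, 0.63, 0.15 and 0.49. The parental cultures held 1286 and 1140 for Mvk, the opposite sign, and 564 and 623 for Mvd, the same sign as the clones. Fatty acid genes differed by clone, with medians of -0.09, -0.02, -0.07 and 0.33.

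S phase genes had their largest median in clone 4, and mitotic genes had opposite signs in clones 2 and 4. Genes of S phase had medians of 0.14, 0.07, 0.02 and 0.51 in clones 1 to 4, and 7 of 21 were higher at an unadjusted p under 0.05 (33.3%, against 11.5% of all genes). Mcm2, a subunit of the replicative helicase, held 2556 and 4371 normalised reads for clone 1, 4226 and 5484 for clone 2, 5366 and 5742 for clone 3 and 4836 and 7634 for clone 4, with 2702 and 2742 in the parental cultures. Uhrf1, which couples replication to DNA methylation, had the largest gap of clone 4 among genes higher in culture 2, from 190.5 to 982 reads, against 225 and 425 for clone 1, 499 and 558 for clone 2 and 353 and 414 for clone 3. Genes of G2 and M phase split by clone, with medians of 0.00, -0.31, 0.00 and 0.32, and 3 of 20 were higher in culture 2 of clone 2 against 18 of 20 in clone 4. Cenpe, the kinetochore motor, was lower in all 4 clones, by 0.19 to 0.43, and the parental cultures differed by 0.11 the other way.

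Ribosomal protein genes shared one sign in clones 1 to 3 and mostly had the opposite sign in clone 4; the difference between clones was not tested. Many have processed pseudogenes, and the treatment of shared reads is not stated. All 30 tested were higher in culture 2 of clones 1, 2 and 3, and 4 of 30 were higher in clone 4. The medians were 0.41, 0.39, 0.14 and -0.39 in clones 1 to 4 and -0.03 in the parental line. The 2161 most highly expressed of all tested genes had smaller medians of the same signs, at 0.076, 0.088, 0.022, -0.069 and -0.017 in the same order. The 2161 with the lowest expression had -0.033, -0.068, 0.003, 0.063 and 0.002. Rps2, a protein of the small subunit and one of the 3 list members with the lowest unadjusted p, held 48241 and 85974 normalised reads for clone 1, 52173 and 79791 for clone 2, 76360 and 85514 for clone 3 and 76597 and 81499 for clone 4, so that it was one of the 4 exceptions in clone 4. Nuclear genes of oxidative phosphorylation were arranged likewise, with 17, 19, 18 and 2 of 20 higher in culture 2 of clones 1 to 4 and medians of 0.21, 0.22, 0.13 and -0.20. With mean differences taken over the 4 clones, 5 of 30 ribosomal and 3 of 20 respiratory genes were higher at an unadjusted p under 0.05 and 0 were lower, shares of 16.7% and 15% against 11.5% of all genes. Ribosomal protein genes are short, and with the span-adjusted differences the ribosomal medians were 0.30, 0.26, 0.05 and -0.36. Under quantile normalisation they were 0.30, 0.19, 0.10 and -0.29, so the signs held under that scaling. The respiratory medians adjusted for span were 0.11, 0.13, 0.05 and -0.17.

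Interferon-stimulated genes were lower in culture 2 of clones 1 and 2. All 13 tested had a negative difference in both, with medians of -0.46 and -0.21, against 0.00 in clone 3, 0.04 in clone 4 and -0.05 in the parental line. Ifit3, an antiviral protein, held 950 and 278 normalised reads for clone 1, 124 and 67.8 for clone 2, 48.1 and 48.5 for clone 3 and 70.0 and 46.7 for clone 4, with 414.5 and 420 in the parental cultures. Culture 1 of clone 1 thus stood above the parental cultures and culture 2 below them. Of the 13 genes, 3 were lower at an unadjusted limma p under 0.05 (23.1%, against 11.2% of all genes).

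Melanocyte markers differed in both directions, with medians near 0. Of these, 9 of 10 were in the table, Ednrb being the exception, and they summed to 1397946 to 1909198 normalised reads per library, and their median differences were -0.11, -0.03, 0.01 and 0.05 in clones 1 to 4. At an unadjusted p under 0.05, 2 of 9 were higher (22.2%, against 11.5% of all genes) and 1 lower (11.1%, against 11.2%). Sox10, the lineage regulator, held 22198 and 29672 reads for clone 1, 23151 and 28510 for clone 2, 26158 and 27505 for clone 3 and 25326 and 33760 for clone 4. Kit, the receptor of stem cell factor, was lower in culture 2 of all 4 clones, by 0.12 to 0.40. Among 17 genes of melanin synthesis and melanosomes, 3 were lower (17.6%, against 11.2% of all genes) and 1 higher (5.88%, against 11.5%) at an unadjusted p under 0.05, and the medians were -0.15, -0.09, 0.02 and -0.30, the last of which was -0.08 under quantile normalisation. Myo5a held 39171 and 21620 reads for clone 1, 52335 and 31551 for clone 2, 29491 and 24693 for clone 3 and 27315 and 21527 for clone 4, and its partner in melanosome transport Mreg had differences of -0.50, -0.43, -0.02 and -0.95. Clock genes had medians of -0.18, -0.23, 0.01 and 0.01. At an unadjusted p under 0.05, 4 of 18 were lower (22.2%, against 11.2% of all genes) and 2 higher (11.1%, against 11.5%). Bhlhe40 and Rora, repressor and activator of the clock, were lower in all 4 clones, with means of -0.29 and -0.30, and Per1 was higher in all 4, with a mean of 0.42. Of the remaining lists, MHC class I presentation, NF-kB targets and p53 targets had medians between -0.06 and 0.10 in every clone.

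**Figure D5:**
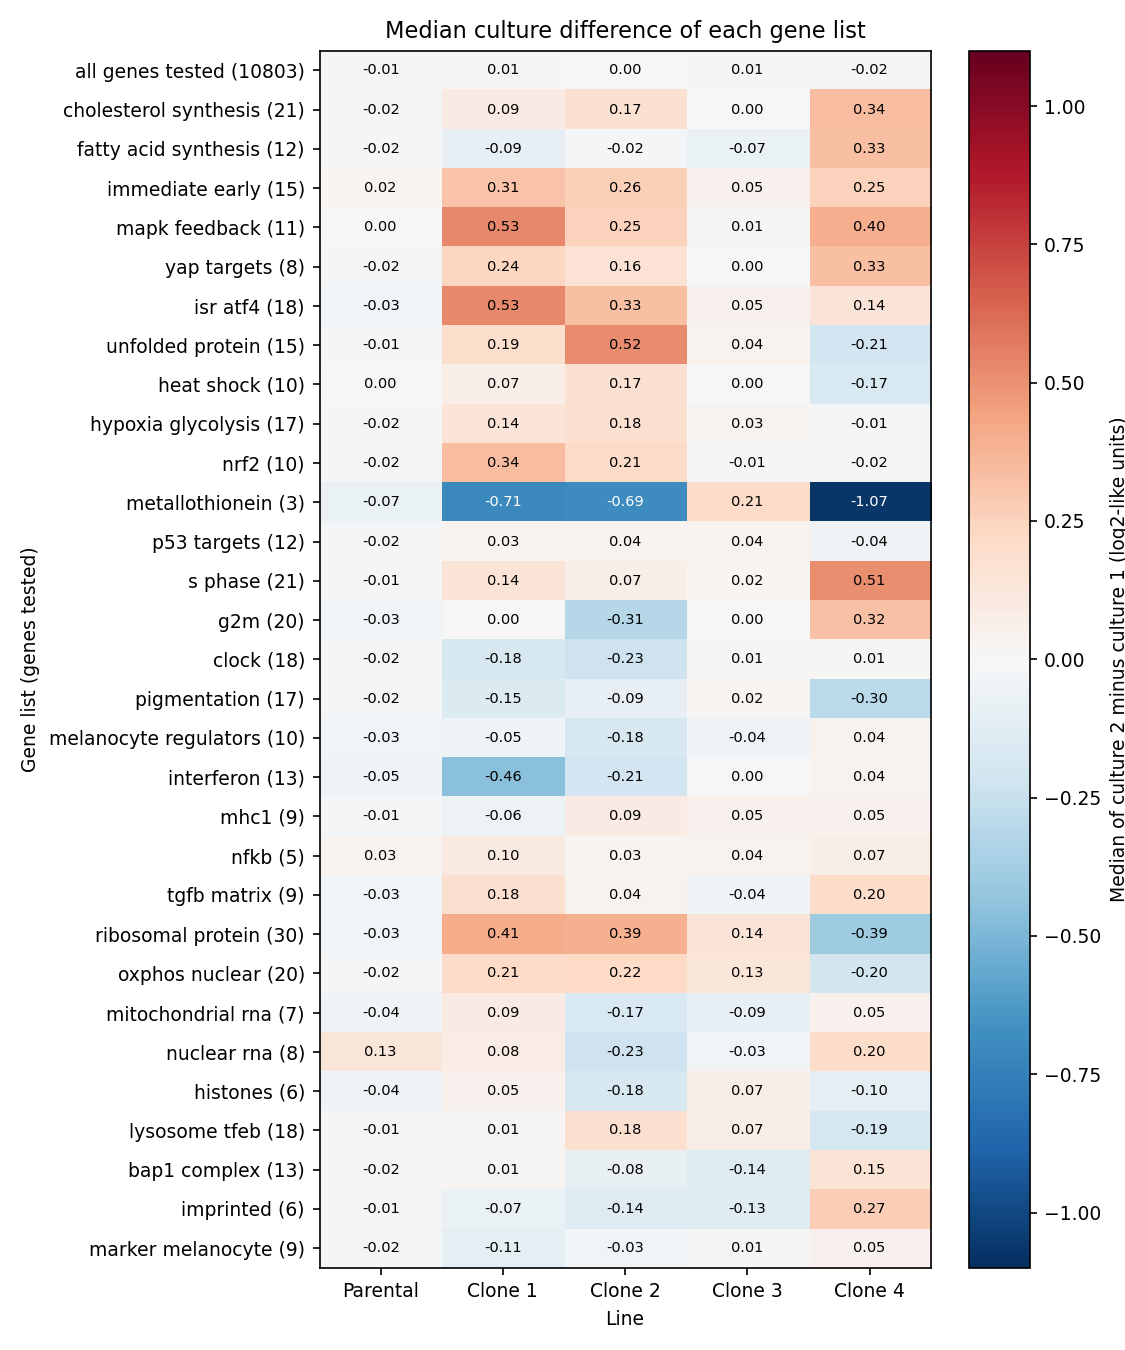
Median difference between culture 2 and culture 1 (colour and printed value, log2-like units) of each gene list (rows, number of genes tested in brackets) in the parental line and clones 1 to 4 (columns). The parental column stays between -0.07 and 0.13, clone 3 is pale, and the ribosomal and respiratory rows differ in sign between clones 3 and 4.

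The largest differences within single clones included genes that clones 1 and 2 had in common. Cd36, a fatty acid and thrombospondin receptor, held 2104 and 438 normalised reads for clone 1, 461 and 73.1 for clone 2, 228 and 221 for clone 3 and 95.2 and 17.7 for clone 4, against 3944 and 3947 in the parental cultures. Sparcl1, a matricellular glycoprotein, held 2772 and 803 for clone 1, 4273 and 1262 for clone 2, 872 and 1028 for clone 3 and 710 and 344 for clone 4, against 15455 and 15404. For both genes the culture gap came on top of a lower level than in the parental line, and it was small in clone 3, at -0.03 for Cd36 and 0.20 for Sparcl1. Nppb, which encodes a natriuretic peptide, held 532 and 117 for clone 1, 961.5 and 615 for clone 2, 243 and 293.5 for clone 3 and 784 and 121 for clone 4. Every clone value stood above the parental 110 and 106.5, culture 2 of clones 1 and 4 only slightly. Among the higher genes, Car6, a secreted carbonic anhydrase, held 207 and 1059 for clone 1, 125 and 448 for clone 2, 230 and 183 for clone 3 and 447.5 and 715 for clone 4. Otog, a protein of the inner ear matrix, differed by 1.87 in clone 1 and 0.85 in clone 2, and Avil, an actin regulator of the villin family, by 1.42 and 1.51. Myh11, a smooth muscle myosin, was lower in clones 1 and 2, at -1.07 and -1.28, and level in clones 3 and 4, at -0.03 and 0.07. The leading genes of clone 4 beside Mt2, Nppb, Uhrf1 and Etv5 were Cpm, a membrane carboxypeptidase, at 496 and 1678 reads, and Fbxo32, a ubiquitin ligase subunit of atrophy, at 5165 and 1815. Both also differed in clones 1 and 2, by 1.43 and 0.64 for Cpm and by -0.80 and -0.48 for Fbxo32. In limma over the 4 pairs these genes had adjusted p of 0.124 to 0.160.

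Clone 3 had small differences even for its leading genes. Nxn, a redox regulator of Wnt signalling, held 163 and 303 reads in its cultures and Hyi, a hydroxypyruvate isomerase, 706 and 1027, and both were also higher in culture 2 of clone 4, by 0.60 and 0.46. Lcor, a nuclear receptor corepressor, held 602 and 352.5 reads for clone 3 and had the opposite sign in clone 4, at 0.54. Zbed6, a repressor of Igf2, was lower by 0.53 in clone 3 and higher by 0.89 in clone 4. The largest differences of the parental pair were -0.36 for Lars2 and Bc1 and 0.35 for Cdc7, and they set the scale of the unedited reference.

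Most markers of other cell types were not listed in the table. Of 9 fibroblast markers 1 was in the table, Pdgfra, at 6.3 to 75.3 normalised reads, and Col1a1, Col3a1 and Dcn were not listed. Of 9 keratinocyte markers, a cell used as feeder for melanocytes, Krt10 and Cdh1 were listed, with a sum of 104 to 306 reads, and Krt5 and Krt14 were not. Of 10 macrophage and leukocyte markers 3 were listed, Cd68, Csf1r and Lyz2, with a sum of 1059 to 2546 reads, and Ptprc and Adgre1 were not. Cd68, a lysosomal glycoprotein found in many cells, held 2486 and 1277 reads for clone 4 and 970 and 937 for clone 1, a difference of -0.87 and -0.04. Of 7 endothelial markers 4 were listed, with a sum of 719 to 1532 reads. The part of other cells in the culture differences was not tested.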

How the data were processed

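Polyadenylated RNA was made into stranded libraries, per the labels' protocols. The authors deposited 13202 genes with variance-stabilised values close to log2. The submitters' processing notes list the builds GRCm38 and mm10. The aligner, counter and stabilising package were not given in the sources used here. Values inverted to whole reads, with 100.0% within 0.01 of a whole number in each of the 10 libraries, and 0 value columns were left unmapped. Genes with a mean at least 1 above the lowest value, 6.61, were tested, which left 10803. Differences of culture 2 minus culture 1 were fitted with limma 3.58.1 (R 4.3.3, mean-variance trend, clone as a block), two-sided, with Benjamini-Hochberg adjustment and a threshold of 0.05. The fit was run on simulated data with planted changes shared by all clones. Genes and libraries were drawn independently there, unlike the differences seen here, so the simulation cannot gauge the unadjusted counts. An alternative used limma-voom on the recovered reads, others quantile normalisation, centring, stricter filters and leaving out each clone.

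Genes were named by rule: up to 12 per direction, taken past the threshold or, as none passed, with one sign in all 4 clones by the largest smallest difference; the 3 lowest unadjusted p of each list; the 3 largest per line and direction; and Bap1. The comparison and the lists were chosen with earlier results of these data known. Gene positions and promoters are from RefSeq GRCm38.p6 for 13190 matched genes. Whether the cultures were grown apart is not stated, so p-values measure the spread between these samples, which may be technical. Some genes that the rule names are not reported here.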

Additional observations from a re-analysis of the deposited data

Results flagged for a closer look

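Of 147 groups of 4 clone values examined, 9 had 1 clone set apart from the others by more than Dixon's 95% critical value, which chance exceeds in about 1 in 20 groups. For 3 lists clone 4 stood apart, with a median culture difference of 0.33 for fatty acid synthesis, -0.04 for p53 targets and 0.27 for imprinted genes. Among named genes, clone 2 stood apart for Gm26519 at 0.48, H2bc8 at -0.58 and Qser1 at -0.47. Clone 4 stood apart for the mitochondrial transcript ND5 at 0.06 and for Cd68 at -0.87, and clone 3 for the imprinted gene Impact at -0.09. The named genes were chosen from these same clone values, so the rate of about 1 in 20 need not hold for them.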

How the results depend on the processing

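The count of genes at an adjusted limma p under 0.05 stayed 0 for the paired comparison and for the comparison with the parental pair under every alternative run. The number of genes at an unadjusted p under 0.05 (2461) was 306 with no replicate block, that is, with the clone left out of the fit, and ranged from 960 to 3361 when each clone was left out. Against the parental pair (140 genes) it ranged from 26 to 618. The paired fit took 1 culture difference as shared by all clones, so it aligned same-numbered cultures across clones. The labels do not say that the numbers correspond between clones. The library codes of cultures 1 and 2 end in 3 and 4 for clones 1, 2 and 4, but in 4 and 5 for clone 3. Whether culture 1 of clone 3 corresponds to culture 2 of the other clones was not tested. Across genes, r was 0.11 to 0.73 in 5 of 6 pairs of clones and -0.03 between clones 3 and 4. Under log2 of normalised reads plus 1, genes past 1 unit numbered 3 for the parental line and 173, 146, 27 and 297 for clones 1 to 4, and genes of at least 0.25 in each clone 49 higher (main 8) and 82 lower (main 14). Adjusted for gene span, a step chosen after seeing the data, they were 5 and 7. With each clone left out they ranged from 10 to 282 higher and from 15 to 254 lower. The likeness of clones 2 and 3 was 0.26 on log2 reads and 0.29 adjusted for span. None of the 142 named genes passed the threshold under 13 alternatives, and 1826 of 1830 mean differences kept their sign. The 4 that did not came from leaving out a clone: the mean ranged from -0.28 to 0.09 for Lcor, -0.17 to 0.09 for Ankfn1 and -0.41 to 0.07 for Zbed6, genes named for clone 3 alone. The cause of the shifts was not tested. Depth limits mainly genes near the lowest value, where the stabilised scale is flat.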
